A study of Arabidopsis thaliana and Arabidopsis lyrata subsp. lyrata with 12 samples.

Results

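The comparison of heat-stressed (HS) with control rosettes of *Arabidopsis thaliana* covered all genes and rested on 4 RNA-seq libraries of the 12 in the study, taken as the raw read-count columns of the 2 HS and the 2 control libraries. The HS group spent 6 h at 37 °C, and its leaves were collected at the end of that treatment. The control plants stayed at 21 °C and were collected at the same time. All were of the accession Col-0, with no transgene or mutation named, and had been grown on soil for 3 weeks under 16 h of light and 8 h of dark. The labels give rosette leaves as the tissue and do not say whether the 2 libraries of a group came from separate plants or pools. The p-values therefore measure the spread between these libraries, which may be technical. The recovery libraries of *A. thaliana* entered the low-count filter, the scaling and the estimate of spread and were not compared. The *A. lyrata* libraries were not used.

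High temperature unfolds proteins, and plants answer through heat shock factors, which bind repeats of the unit nGAAn upstream of chaperone genes. The chaperones are the best known part of this answer. Leaves under heat are also known to cool themselves by transpiration, to hold back growth and cell division, to change the balance of splicing and translation, and to let immune and cold-stress signalling drop. Those processes beyond the heat shock proteins are described here, ordered from gene expression machinery to plastids, growth, defence and metabolism.

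The HS libraries held 9624503 and 45254555 reads on annotated loci, against 13833498 and 27978554 reads in the control libraries. Of 32678 loci, 18536 passed the filter on low counts and were tested with edgeR. After HS, 6471 of them were higher (34.9% of the genes tested) and 7319 were lower (39.5%) at a Benjamini-Hochberg adjusted p under 0.05. At least 4-fold changes numbered 1503 higher and 2869 lower, and at least 16-fold changes 402 higher and 682 lower. Any list of genes is read below against those shares.

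Each control library was left out in turn. Such a fit holds 1 control library and takes its spread from the HS and recovery pairs alone. Those pairs were closer than the control pair, so more calls and a large overlap are built into the fit. The overlap therefore cannot show whether either control library decided the result. Without control replicate 1 the calls numbered 7493 higher (40.1% of those tested) and 8001 lower (42.8%), and 6459 of the 6471 higher and 7175 of the 7319 lower genes were shared with the full comparison. Without control replicate 2 they numbered 7363 higher (39.2%) and 7779 lower (41.4%), with 6429 and 6962 shared. Omission of an HS library gave fewer calls than the full comparison, in a fit that took its spread from the control and recovery pairs. The control libraries differed more from each other (SD of the log2 ratio of replicates 0.411) than the HS libraries (0.149) or the recovery libraries (0.14), over 10339 genes. One feature that set them apart was the small heat shock proteins, whose summed level was 107208 and 117337 CPM (counts per 1e6 reads after TMM scaling) in the HS libraries, against 196 CPM in control replicate 1 and 46.7 CPM in control replicate 2. Some tissue markers also set the controls apart. The epidermal marker *PDF1* had 52.5 CPM in control replicate 1 and 9.32 CPM in control replicate 2, and the meristem markers *STM* and *KNAT1* had 39 and 35 reads in control replicate 1 and none in control replicate 2 (0 reads). The part of either feature in other differences between the controls was not tested.

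The scaling changed many calls. TMM, which assumes that most genes keep their level, gave a median log2 fold change of -0.12 over all genes, whereas dividing by library totals gave -0.87. With library totals, 3411 genes were higher (18.4%) and 11101 lower (59.9%), and 1512 of the higher calls changed sign while none of the lower calls did (0 genes). Library totals moved the fold changes down together, so lower calls had little room to change sign. Decreases given below thus kept their direction by construction, which does not make them firmer than increases. Increases are marked where they did not keep theirs. With bulk leaves, fewer cells of a type and less RNA per cell cannot be told apart.

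**Figure D1:**
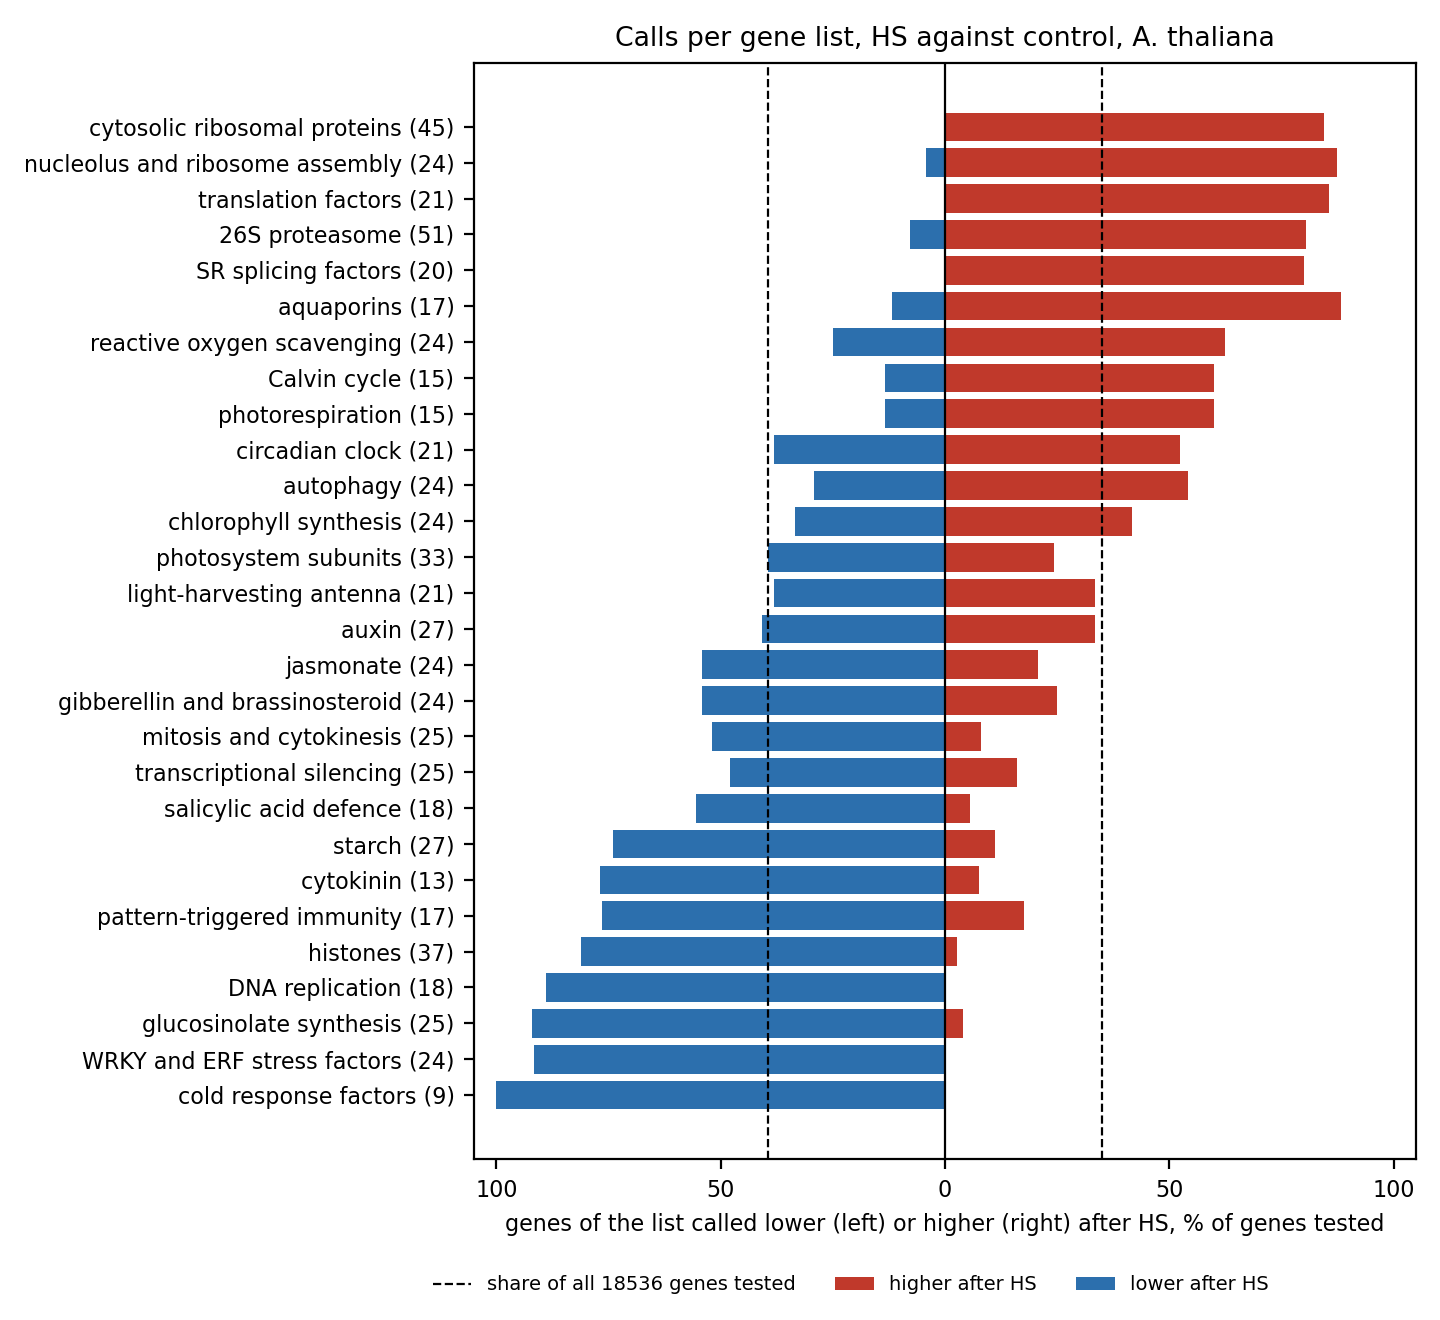
Percentage of tested genes called higher (red, right) or lower (blue, left) after HS for 28 gene lists, with the number tested in brackets; dashed lines mark the shares over all genes, 34.9% higher and 39.5% lower. Ribosome, translation, proteasome, splicing and aquaporin lists lay to the right of the background, and defence, cold, glucosinolate, histone and replication lists to the left.

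Genes of the machinery that builds ribosomes were mostly higher after HS. In the nucleolus, pre-ribosomal RNA is cut, modified and assembled with proteins before export, and 21 of 24 assembly genes rose while 1 fell, with a median log2 fold change of 2.01. *BOP1* (AT2G40360) and *PES* (AT5G14520) encode partners in a complex that matures the large subunit. *BOP1* had 356 and 360 CPM in HS, against 41.5 and 32.8 CPM in control. Its log2 fold change was 3.27 ± 0.14 (SE, adjusted p = 1.17e-06). *PES* had 335 and 350 CPM in HS, against 45.1 and 30.3 CPM in control, a log2 fold change of 3.19 ± 0.19 (adjusted p = 4.31e-06). For both genes the HS libraries nearly coincided and the groups were far apart.

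*FIB1* and *NUC1*, added to complete the list, encode fibrillarin, the methyltransferase that acts on ribosomal RNA, and nucleolin, which acts on chromatin and transcripts of ribosomal RNA genes. *FIB1* reached 483 and 528 CPM in HS, against 86.0 and 73.4 CPM in control, and *NUC1* reached 845 and 884 CPM in HS, against 285 and 229 CPM in control. The exception was *RTL2*, an RNase III that trims the pre-ribosomal RNA, which fell to 1.17 and 1.64 CPM in HS, against 3.14 and 3.52 CPM in control (log2 fold change -1.16 ± 0.28, adjusted p = 0.0056). With library totals 19 of the 24 genes were still higher and 2 were lower.

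Cytosolic ribosomal proteins followed the same course at a smaller size. Of 45 genes tested 38 were higher and none was lower (0 genes), with a median log2 fold change of 1.25. *RPL3A* (AT1G43170), a protein near the peptidyl transferase centre, had 1862 and 1872 CPM in HS, against 369 and 294 CPM in control (log2 fold change 2.50 ± 0.16, adjusted p = 5.00e-06). *RPS5B* (AT2G37270) of the small subunit had 430 and 448 CPM in HS, against 91.2 and 76.3 CPM in control. The 7 members with no call had log2 fold changes between -0.08 and 0.54. Summed over the list, HS libraries held 21021 and 21940.0 CPM, against 9280 and 6191 CPM in control. With library totals 21 genes remained higher by the count and 3 were lower. Families of near-identical ribosomal protein genes may share reads, so single members are less certain than the sum.

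Translation factors added to this, with 18 of 21 higher and none lower (0 genes), a median of 1.41. *EIF3E* (AT3G57290), a subunit of the initiation factor that loads messages onto the small subunit, had 356 and 364 CPM in HS, against 84.7 and 69.9 CPM in control (log2 fold change 2.22 ± 0.13, adjusted p = 3.53e-06). *TCTP1*, a conserved regulator of growth and cell division, had 4164 and 4423 CPM in HS, against 1041 and 781 CPM in control. In library totals the same list gave 13 higher and 2 lower genes.

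The 250 bases upstream of the annotated gene starts were searched on both strands for short motifs known from plant promoters, on the RefSeq assembly TAIR10.1. Site II (TGGGCC), which binds TCP factors upstream of ribosomal protein genes, was in 24.3% of windows of genes higher after HS, 16.4% of those with no call and 12.0% of those lower, against 11.4% of all 37897 windows. It was in 25 of 45 windows of the ribosomal protein list and 13 of 24 of the ribosome assembly list. The windows around the first match in the genes just described are printed to show the motif, in capitals, in its place; a match is no evidence of binding.
RPL3A, chr1:16266378-16266463, plus strand: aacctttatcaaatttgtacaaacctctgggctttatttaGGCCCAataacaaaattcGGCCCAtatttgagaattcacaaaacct
BOP1, chr2:16856791-16856876, minus strand: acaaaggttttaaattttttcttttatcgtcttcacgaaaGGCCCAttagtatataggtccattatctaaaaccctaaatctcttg
PES, chr5:4684473-4684550, minus strand: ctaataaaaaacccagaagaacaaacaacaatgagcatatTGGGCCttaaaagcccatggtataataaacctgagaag

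**Figure D2:**
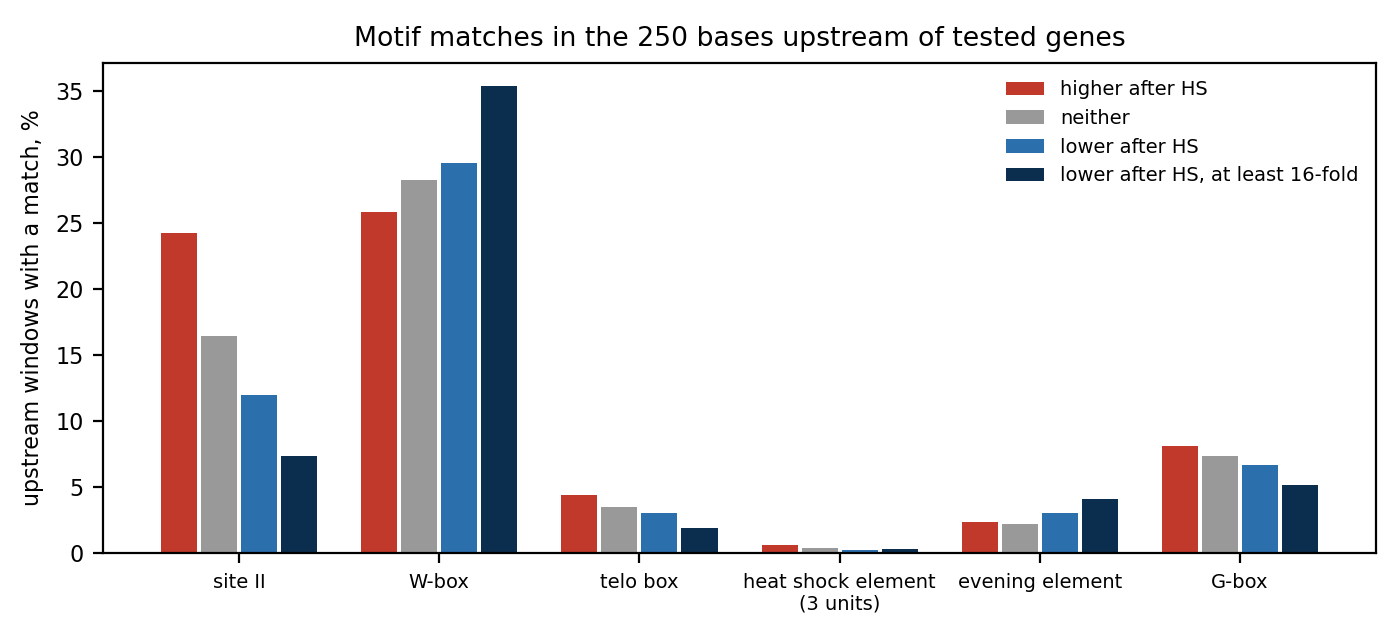
Percentage of 250-base upstream windows with at least 1 match of 6 motifs, for tested genes that were higher, neither or lower after HS and for those at least 16-fold lower. Site II was most frequent among higher genes (24.3%) and the W-box among the strongly lower genes (35.3%); the shares are descriptions with no test.

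Genes of the proteasome, which degrades proteins, were also mostly higher, but less firmly. The proteasome is a barrel of proteolytic subunits capped by a regulatory particle that unfolds ubiquitin-tagged proteins. Of its 51 genes 41 were higher and 4 lower, with a median of 0.81. *RPN2B* (AT1G04810), a scaffold of the cap, had 363 and 360 CPM in HS, against 28.2 and 38.9 CPM in control (log2 fold change 3.43 ± 0.17, adjusted p = 1.71e-06). *RPN6*, which clamps cap to barrel, had 327 and 313 CPM in HS, against 56.2 and 56.1 CPM in control. Copies of the same subunit could part ways: *RPN3B* fell to 3.07 and 4.01 CPM in HS, against 15.3 and 16.5 CPM in control, and the core subunit *PAB1* fell to 17.1 and 22.7 CPM in HS, against 61.7 and 40.4 CPM in control. With library totals the list was split, with 19 higher and 14 lower.

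Autophagy, the delivery of cytoplasm to the vacuole, gave 13 higher and 7 lower of 24 genes, a share of lower genes under the background. The increases were led by the ubiquitin-like proteins that coat the autophagosome. *ATG8H* had 37.6 and 38.3 CPM in HS, against 8.38 and 6.31 CPM in control (log2 fold change 2.39 ± 0.17, adjusted p = 9.87e-06), and *ATG8A* had 106 and 100.3 CPM in HS, against 22.3 and 18.2 CPM in control. The protease *ATG4B*, which processes these proteins, was lower, with 9.94 and 12.8 CPM in HS, against 27.3 and 25.4 CPM in control. With library totals 5 genes were higher and 10 lower, and without HS replicate 2 the lower genes numbered 4.

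Serine/arginine-rich (SR) proteins choose splice sites, and 16 of 20 of their genes were higher with none lower (0 genes). *SR45A* (AT1G07350) had 1001 and 1068 CPM in HS, against 31.7 and 28.4 CPM in control, a log2 fold change of 5.11 ± 0.15 (adjusted p = 3.97e-07). *SR30* had 624 and 681 CPM in HS, against 52.8 and 49.7 CPM in control (log2 fold change 3.67 ± 0.12, adjusted p = 5.22e-07). The 4 members with no call had log2 fold changes between -0.26 and 0.11. With library totals 11 were higher and 3 lower. The counts sum all splice forms of a gene, so nothing can be said of the ratio of forms.

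The list of small RNA genes, of microRNA processing and post-transcriptional silencing, was divided. *HYL1* and *SE*, partners of the Dicer that cuts microRNA precursors, were both higher. *HYL1* had 68.9 and 65.7 CPM in HS, against 7.60 and 9.00 CPM in control (log2 fold change 3.01 ± 0.15, adjusted p = 1.66e-06). *SE* had 182 and 177 CPM in HS, against 29.4 and 32.7 CPM in control. *AGO7*, the Argonaute of trans-acting small RNAs, fell to 2.05 and 2.86 CPM in HS, against 8.08 and 13.2 CPM in control. The list of 13 gave 7 higher and 2 lower with TMM, 3 higher and 8 lower with library totals, and 4 higher without HS replicate 2.

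**Figure D3:**
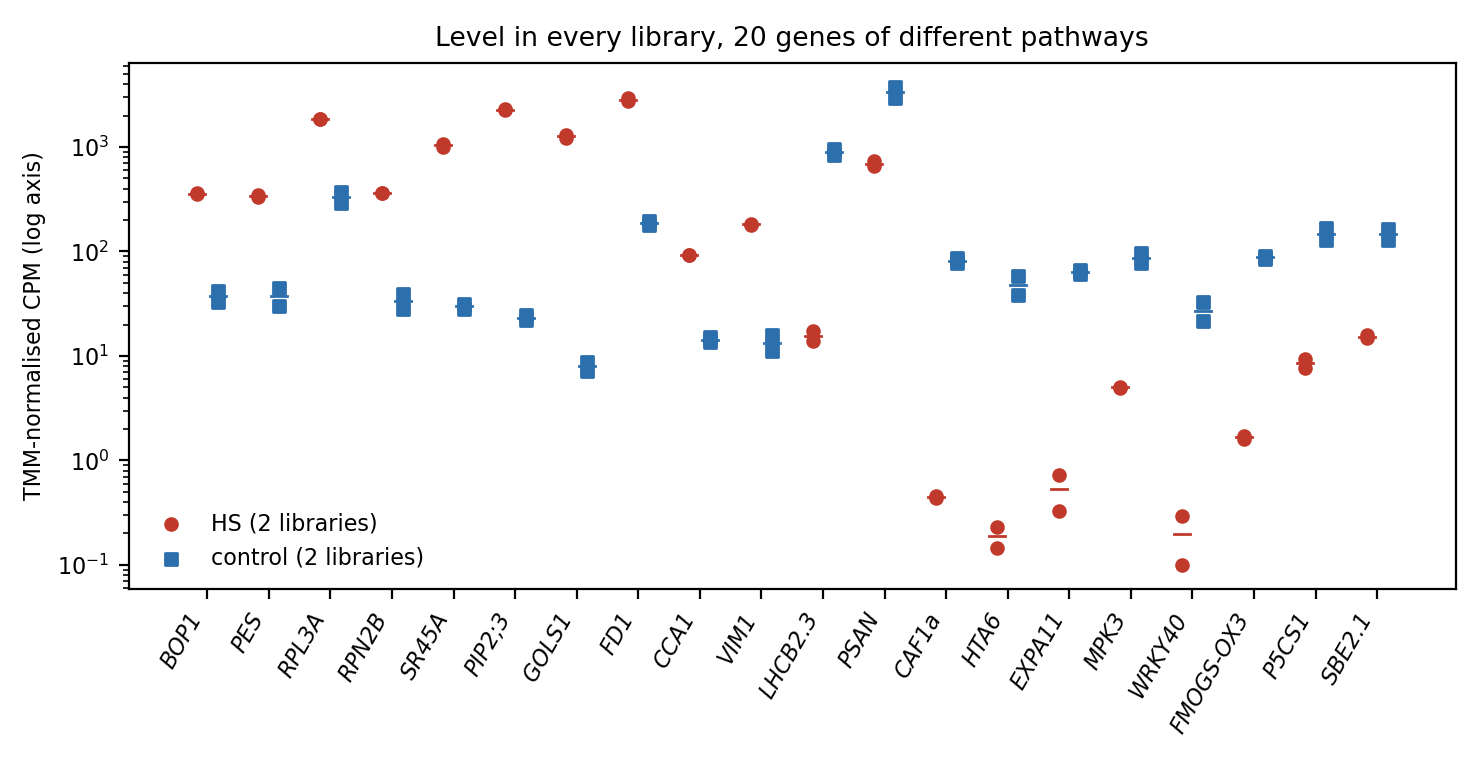
TMM-normalised CPM on a log axis in both HS libraries (red circles, left of each pair) and both control libraries (blue squares) for 20 genes of different pathways; short lines are group means. Separate groups were a condition for naming genes, so the gaps are a description and no result (over all genes, 40.1% lay above both controls in both HS libraries and 45.7% below). They run from *BOP1* (356 and 360 CPM in HS, 41.5 and 32.8 CPM in control) to *SBE2.1* (14.9 and 15.8 CPM in HS, 130 and 164 CPM in control).

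Water channels were among the clearest increases outside the chaperones. Plasma membrane intrinsic proteins (PIPs) and tonoplast intrinsic proteins (TIPs) let water cross the cell and vacuole membranes. Of 17 aquaporins 15 were higher and 2 lower, with a median of 2.01, and with library totals 11 were higher and 2 lower. *PIP2;3* (AT2G37180) had 2289 and 2253 CPM in HS, against 24.4 and 21.9 CPM in control, a log2 fold change of 6.62 ± 0.18 (adjusted p = 3.72e-07). *PIP2;2* (AT2G37170), its neighbour on the chromosome with a closely similar sequence, had 552 and 701 CPM in HS, against 56.1 and 59.3 CPM in control. How reads were divided between these neighbours is uncertain. The increase reached abundant members as well, since *TIP1;1* (added to complete the list) had 2242 and 2393 CPM in HS, against 226 and 221 CPM in control. *PIP2;8* fell to 1.75 and 1.88 CPM in HS, against 8.02 and 4.64 CPM in control.

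Photosynthesis genes did not move as a block, and their direction depended on the scaling. Antenna proteins, which gather light, gave 7 higher and 8 lower of 21 genes, and photosystem and electron transport subunits 8 higher and 13 lower of 33. Without HS replicate 2 the higher genes numbered 2 and 4, and without control replicate 1 the lower photosystem genes numbered 20. With library totals the antenna had 0 higher and 14 lower genes and the subunits 2 higher and 25 lower. The most marked antenna change was *LHCB2.3* (AT3G27690), which fell to 17.4 and 13.8 CPM in HS, against 837 and 959 CPM in control (log2 fold change -5.87 ± 0.18, adjusted p = 4.94e-07). *LHCB1.2* instead had 12603 and 13614 CPM in HS, against 7093 and 7617 CPM in control, a log2 fold change of 0.83 ± 0.17 that shrank to 0.09 with library totals (adjusted p = 0.54 by edgeR).

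The photosystem I subunits leaned one way, with 8 of 12 lower and none higher (0 genes). *PSAN*, on the lumen side of photosystem I, fell to 652 and 739 CPM in HS, against 3788 and 2962 CPM in control (log2 fold change -2.28 ± 0.18, adjusted p = 1.46e-05). Electron transport genes changed in both directions, with 6 higher and 3 lower of 11. *FD1* (AT1G10960), the minor leaf ferredoxin, had 2741 and 2948 CPM in HS, against 181 and 195 CPM in control (log2 fold change 3.92 ± 0.15, adjusted p = 6.99e-07), whereas the major ferredoxin *FD2* was lower by TMM (log2 fold change -0.44, and not called without either HS library). *FNR2*, a reductase that takes electrons from ferredoxin, also fell to 449.6 and 464 CPM in HS, against 1552 and 1732 CPM in control.

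Carbon fixation and photorespiration, which salvages the product of the oxygenation of RuBP, each had 9 of 15 genes higher and 2 lower. With library totals the counts were 5 higher and 5 lower for the Calvin cycle, and 4 higher and 9 lower for photorespiration, which also had 4 higher genes without either HS library and 5 lower without control replicate 1. *CAT2* (AT4G35090), the catalase of leaf peroxisomes, had 1673 and 1588 CPM in HS, against 299.7 and 478 CPM in control (log2 fold change 2.07 ± 0.22, adjusted p = 7.30e-05). *CAT3* went the other way, with 1218 and 1206 CPM in HS, against 3744 and 4711 CPM in control (log2 fold change -1.80 ± 0.17, adjusted p = 4.31e-05). *CP12-2*, a small protein that holds 2 Calvin cycle enzymes in an inactive complex in the dark, fell to 68.3 and 85.6 CPM in HS, against 318 and 301 CPM in control. Its more abundant paralog *CP12-1* was higher, with 1677 and 1940 CPM in HS, against 831 and 806 CPM in control (log2 fold change 1.14).

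Plastid upkeep included one of the steepest increases of the data. *FTSH6* (AT5G15250), a thylakoid protease, had 1067 reads over both HS libraries and 2 reads over both control libraries, a ratio of normalised reads of 685 (95% exact counting interval 189 to 5663, covering counting error only). *CLPC2*, a motor of the plastid Clp protease, had 459 and 490 CPM in HS, against 78.0 and 90.6 CPM in control (log2 fold change 2.49 ± 0.13, adjusted p = 1.99e-06). Chlorophyll synthesis was divided. *CRD1*, an oxygen-dependent cyclase of the pathway, had 5737 and 5638 CPM in HS, against 1441 and 1959 CPM in control, and *PORA*, a light-dependent reductase, fell to 3.07 and 1.84 CPM in HS, against 21.1 and 15.4 CPM in control.

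The circadian clock is a loop of morning MYB factors that repress evening genes and are repressed by them. HS and control leaves were collected at the same time of day, and 11 of 21 clock genes were higher and 8 lower, with a median near 0 under library totals. The morning factors *CCA1* and *LHY* and their relative *RVE4* stood at the top. *CCA1* had 92.0 and 92.7 CPM in HS, against 13.5 and 15.2 CPM in control (log2 fold change 2.68 ± 0.12, adjusted p = 1.14e-06), and *RVE4* had 286 and 305 CPM in HS, against 35.2 and 38.8 CPM in control. *LHY* had 14 and 15.6 CPM in HS, against 1.99 and 2.72 CPM in control. Evening genes were divided among themselves.

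*ELF4*, a member of the evening complex, fell to 0.292 and 0.559 CPM in HS, against 8.68 and 10.6 CPM in control (log2 fold change -4.26 ± 0.33, adjusted p = 1.36e-05), and the log2 fold change was -5.01 without HS replicate 2. Its partner *LUX* had 35.1 and 34.5 CPM in HS, against 33.6 and 33.8 CPM in control, and did not pass the test (log2 fold change 0.05 ± 0.11). *TOC1* also missed it, with 50.3 and 48.7 CPM in HS, against 41.4 and 52.5 CPM in control. *PRR3*, a stabiliser of TOC1, fell to 4.97 and 4.77 CPM in HS, against 29.0 and 27.6 CPM in control.

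Light signalling and flowering genes near the clock changed in both directions. *PIF3*, a phytochrome-interacting factor, had 38.6 and 39.3 CPM in HS, against 8.56 and 9.26 CPM in control, whereas *PIF5* fell to 23.4 and 25.8 CPM in HS, against 90.8 and 113 CPM in control. *HY5*, a factor that promotes light responses, had 22.8 and 25.3 CPM in HS, against 4.94 and 2.59 CPM in control. The floral repressors *TEM1* and *TEM2* were both lower after HS. *TEM1* fell to 2.05 and 2.86 CPM in HS, against 79.0 and 78.6 CPM in control. *TEM2* fell to 1.02 and 1.35 CPM in HS, against 44.0 and 51.4 CPM in control (log2 fold change -5.22 ± 0.18, adjusted p = 5.35e-07). *FT*, the mobile flowering signal that TEM proteins repress, was near the detection limit, with 0.877 and 1.41 CPM in HS, against 0.603 and 1.12 CPM in control, and did not pass the test.

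**Figure D4:**
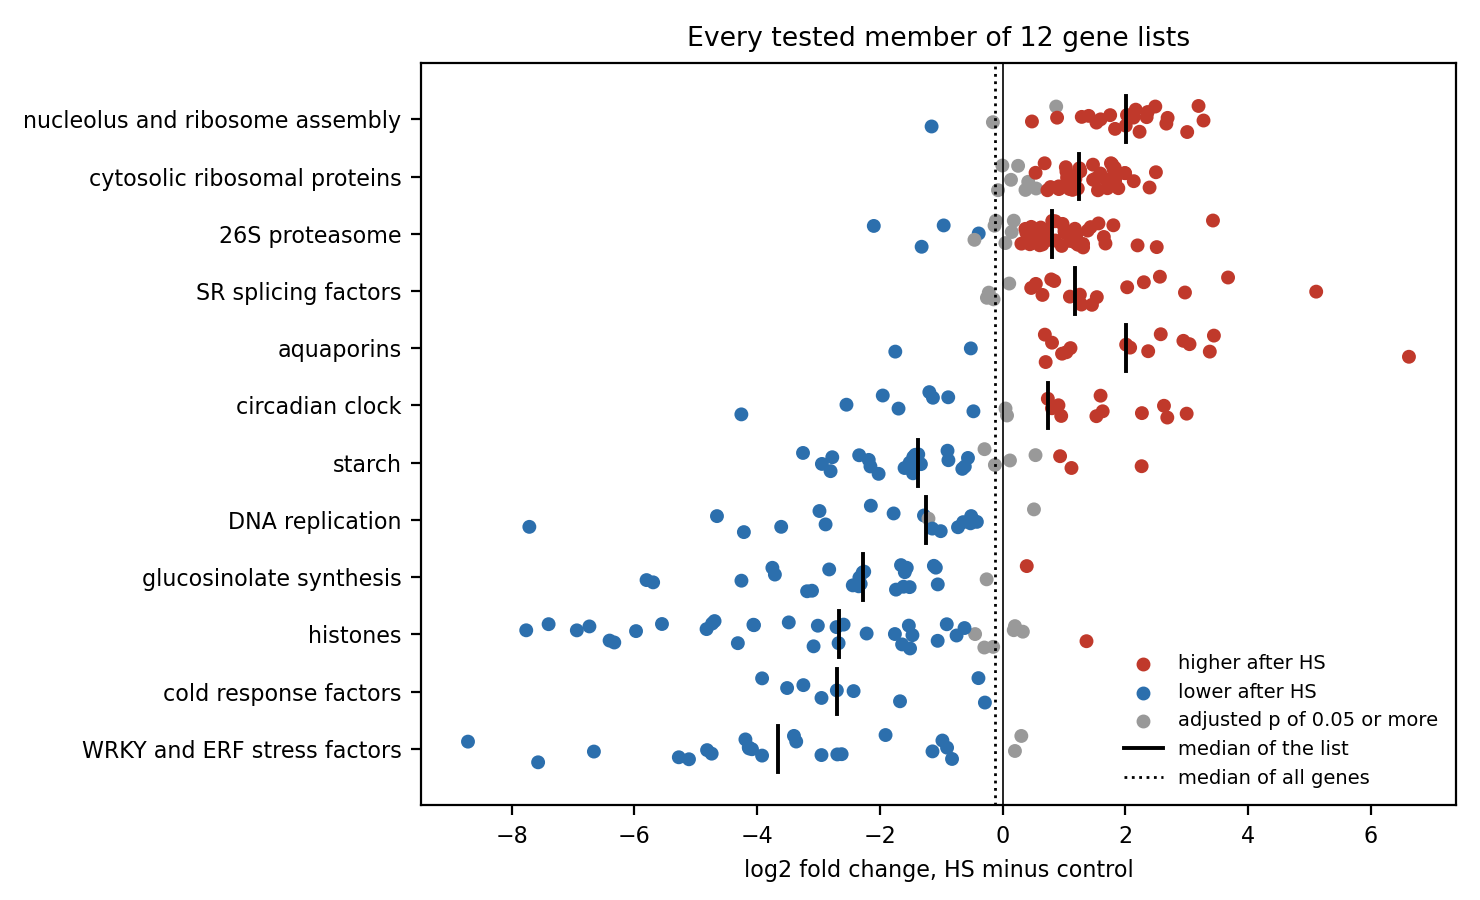
Log2 fold change (HS minus control) of every tested member of 12 gene lists; each point is a gene, coloured by its call, black bars are list medians and the dotted line is the median of all genes (-0.12). Ribosome assembly (median 2.01) and aquaporins (2.01) lay to the right, and the WRKY and ERF factors (-3.66), cold factors (-2.70) and histones (-2.67) to the left.

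Histone genes were broadly lower. Of 37 histone genes tested 30 were lower and 1 higher, with a median of -2.67, including all 3 genes of linker histone H1 and all 8 of H3. Among these, the 5 genes of H3.1, which is loaded during replication, had log2 fold changes between -7.40 and -3.08, and the 3 genes of H3.3, which is placed outside replication, between -1.51 and -1.06. *HTA6* (AT5G59870), an H2A gene, fell to 0.146 and 0.230 CPM in HS, against 58.2 and 38.1 CPM in control (log2 fold change -7.76 ± 0.36, adjusted p = 1.38e-06). The linker histone *H1.1* (AT1G06760) fell to 1.46 and 0.888 CPM in HS, against 115 and 104 CPM in control. Histone copies are near-identical in places, so reads may be shared among them. The only increase was *HTA9*, an H2A.Z variant that is also placed outside replication, with 187 and 198 CPM in HS, against 95.4 and 54.8 CPM in control, and it missed the threshold with library totals (adjusted p = 0.063 by edgeR). The H2A.Z genes *HTA8* and *HTA11* had no call (log2 fold changes 0.33 and -0.45). Without control replicate 1 the list held 5 higher and 30 lower genes.

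DNA replication genes gave 16 of 18 lower and none higher (0 genes), a median of -1.25. *RPA70D*, a subunit of the single-strand binding complex, had 3 reads over both HS libraries and 827 over both control libraries, a ratio of normalised reads of 215 lower in HS (95% exact counting interval 73.2 to 1043). *FAS1*, a subunit of the chromatin assembly factor CAF-1 that loads histones behind the fork, fell to 0.146 and 0.658 CPM in HS, against 11.6 and 9.03 CPM in control (log2 fold change -4.22 ± 0.35, and -6.05 without HS replicate 2). The helicase *MCM6* fell to 2.49 and 2.60 CPM in HS, against 9.53 and 8.17 CPM in control.

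Mitotic genes depended on the control library. With all libraries 13 of 25 were lower and 2 higher, without control replicate 1 it was 11 lower and 7 higher, and without control replicate 2 it was 19 lower and 2 higher. Their summed level was 116 and 115 CPM in HS, against 185 and 82.6 CPM in control, so that the controls enclosed the HS values. Of 6 meristem markers, 4 were tested, 1 was higher and 1 lower, and *WUS* and *CLV3* had no reads in control (0 reads). *STM* had 42 and 190 reads in HS, against 39 and 0 reads in control, and *KNAT1* had 6 and 31 reads in HS, against 35 and 0 reads in control. Omitting control replicate 2 gave *KNAT1* a log2 fold change of -1.04, and omitting replicate 1 gave a fitted value of 7.24, which is against 0 reads and depends on the prior count. *CLV1* differed the other way between the controls, with 15.5 and 16.9 CPM in HS, against 22.4 and 33.4 CPM in control, and the summed level of the markers was 24.0 and 25.4 CPM in HS, against 27.7 and 33.5 CPM in control. Their part in the mitotic counts was not tested. Without HS replicate 2 the lower genes numbered 8. *CYCB1;1*, a B-type cyclin that drives entry into mitosis, was below both controls, with 0.146 and 0.296 CPM in HS, against 3.02 and 1.44 CPM in control. *POK1*, a kinesin that marks the division plane, had 15.5 and 16.6 CPM in HS, against 4.40 and 3.59 CPM in control (log2 fold change 2.03 ± 0.16, adjusted p = 1.55e-05).

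Among silencing factors, 12 of 25 were lower and 4 higher. *MET1*, the maintenance CG methyltransferase, fell to 14.3 and 14.6 CPM in HS, against 27.7 and 29.7 CPM in control, and *DCL3*, the Dicer of RNA-directed DNA methylation, fell to 2.49 and 2.86 CPM in HS, against 7.78 and 9.00 CPM in control. *VIM1*, which guides MET1 to half-methylated sites, stood apart with 181 and 184 CPM in HS, against 15.7 and 11.1 CPM in control (log2 fold change 3.78 ± 0.17, adjusted p = 1.41e-06). Omitting control replicate 1 gave 7 higher genes, and omitting control replicate 2 gave 9. The retrotransposon *ONSEN* (*COPIA78*), the element this study turns on, was represented in the gene table by 8 loci, of which 7 were tested and all 7 were higher. Their summed level was 2655 and 2817 CPM in HS, against 6.81 and 2.56 CPM in control. The copies are near-identical, and the split of reads among them is uncertain.

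Growth genes of the cell wall gave 16 lower and 14 higher of 42, close to the background, and 9 were higher without HS replicate 2. Expansins, which loosen the wall, were lower in 7 of 11 cases, whereas cellulose synthesis genes were higher in 6 of 11 and lower in 1. *EXPA11* (AT1G20190) fell to 0.731 and 0.329 CPM in HS, against 60.5 and 66.3 CPM in control (log2 fold change -7.25 ± 0.23, and -6.42 without HS replicate 2). *EXPA8* fell to 0.585 and 0.132 CPM in HS, against 57.5 and 90.7 CPM in control. *CESA7*, a cellulose synthase of secondary walls, had 15.9 and 18.7 CPM in HS, against 2.41 and 3.62 CPM in control. Xylem markers moved alongside: *XCP2*, a protease of vessel cells, had 78.7 and 94.4 CPM in HS, against 12.1 and 15.3 CPM in control. The share of such cells in the samples was not tested.

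The cuticle list, on wax and cutin, was lower in 12 of 22 genes and higher in 3 (6 without control replicate 1). *KCS1*, an enzyme that elongates fatty acids for wax, fell to 1.75 and 1.05 CPM in HS, against 50.7 and 67.2 CPM in control (log2 fold change -5.59 ± 0.25, adjusted p = 1.18e-06). *MYB30*, a factor that activates wax synthesis and also acts in immunity, fell to 2.34 and 2.57 CPM in HS, against 31.4 and 24.6 CPM in control.

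Immune and rapid stress factors made up the sharpest block of decreases. WRKY factors bind the W-box, and the ERF factors listed with them respond quickly to wounding, microbes and ethylene. All 10 ERF genes and 12 of 14 WRKY genes tested were lower, with a median of -3.66, and none was higher (0 genes). *WRKY40* (AT1G80840) had 2 and 3 reads in HS, against 544 and 676 reads in control. *ERF105* (AT5G51190) had 0 and 1 read in HS, against 229 and 445 reads in control, a ratio of normalised reads of 525 lower in HS (95% exact counting interval 93.9 to 20767). *WRKY33*, a main activator of camalexin synthesis, fell to 6.87 and 5.56 CPM in HS, against 101 and 110 CPM in control (log2 fold change -4.14 ± 0.14, adjusted p = 5.51e-07). *WRKY18* and *WRKY25* did not pass the test, with log2 fold changes of 0.30 and 0.20.

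Of the 24 tested WRKY and ERF genes none was higher with library totals (0 genes), and 1 was higher without either control library in turn. The W-box (TTGACC or TTGACT) was in 29.5% of upstream windows of lower genes, 35.3% of those at least 16-fold lower and 25.8% of those higher, against 27.5% of all windows. It was in 12 of 25 windows of the WRKY and ERF list. Windows of a factor and of a TIR-domain gene that nearly vanished after HS are printed with the match in capitals.
ERF105, chr5:20801480-20801565, minus strand: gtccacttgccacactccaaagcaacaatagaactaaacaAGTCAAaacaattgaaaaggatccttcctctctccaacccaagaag
AT1G72910, chr1:27435220-27435305, plus strand: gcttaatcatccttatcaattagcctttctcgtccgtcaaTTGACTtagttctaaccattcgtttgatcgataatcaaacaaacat

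*AT1G72910* and its neighbour *AT1G72920* encode proteins with the TIR domain found in immune receptors. *AT1G72910* had 0 and 7 reads in HS, against 911 and 1994 reads in control. *AT1G72920* had 0 and 1 read in HS, against 435 and 737 reads in control, a ratio of normalised reads of 913 lower in HS (95% exact counting interval 164 to 36088). Other decreases of this size outside the lists were *CAF1a* (AT3G44260), a deadenylase that shortens poly(A) tails, with 0.439 and 0.461 CPM in HS, against 87.1 and 76.8 CPM in control, and *DIC2* (AT4G24570), a mitochondrial dicarboxylate carrier, with 0.585 and 0.197 CPM in HS, against 82.1 and 77.0 CPM in control.

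Genes for the perception of microbial patterns followed, with 13 of 17 lower and 3 higher. *MPK3*, a kinase that relays the signal from surface receptors, fell to 4.97 and 5.07 CPM in HS, against 78.0 and 96.8 CPM in control (log2 fold change -4.12 ± 0.16, adjusted p = 7.21e-07). The co-receptor *BAK1* was higher by TMM, with 53.8 and 53.5 CPM in HS, against 23.2 and 29.6 CPM in control, but missed the threshold with library totals (adjusted p = 0.061 by edgeR). Salicylic acid genes gave 10 of 18 lower and 1 higher (4 higher without control replicate 2).

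*CBP60G*, an activator of salicylic acid synthesis, had 2 and 3 reads in HS, against 413 and 584 reads in control. The defence regulators *EDS1* and *PAD4*, which act as a pair, were both lower: *PAD4* fell to 6.43 and 5.76 CPM in HS, against 38.4 and 46.3 CPM in control. *PR1*, the standard marker of the pathway, did not pass the test (log2 fold change -1.11 ± 0.70), with 47.4 and 53.4 CPM in HS, against 26.2 and 190 CPM in control. The controls enclosed the HS values. With replicate 1 of the control omitted the change came to -1.89 on the log2 scale, and with replicate 2 omitted to 1.01.

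Jasmonate synthesis and turnover genes were lower in 9 of 11 cases and higher in 1. The increase was *CYP94C1*, which oxidises the active conjugate and so inactivates it, with 3.36 and 2.57 CPM in HS, against 1.33 and 1.44 CPM in control (log2 fold change 1.04). That change shrank to 0.30 with library totals, and the call was lost (adjusted p = 0.41 by edgeR). *LOX2*, a plastid lipoxygenase at the start of the pathway, fell to 118 and 127 CPM in HS, against 799 and 912 CPM in control (log2 fold change -2.80 ± 0.14, adjusted p = 1.66e-06). The jasmonate targets *VSP1* and *VSP2* were higher, but by an amount set by the control library. *VSP1* had 78.7 and 82.7 CPM in HS, against 37.7 and 5.12 CPM in control. Its log2 fold change of 1.96 became 3.98 without control replicate 1 and 1.15 without control replicate 2, and the call was lost without either HS library and with library totals. For *VSP2* the log2 fold change of 1.65 became 3.38 without control replicate 1 and 0.90 without control replicate 2, and the call was lost without either HS library and with library totals. The whole jasmonate list of 24 held 5 higher genes, 10 without control replicate 1 and 3 without either HS library.

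All 9 cold response factors were lower, with a median of -2.70 (8 of them without control replicate 2). The CBF factors switch on cold-acclimation genes. *CBF3* fell to 1.17 and 2.11 CPM in HS, against 12.5 and 11.5 CPM in control, and *RAV1*, a factor lowered by brassinosteroid, fell to 8.63 and 9.31 CPM in HS, against 103 and 104 CPM in control (log2 fold change -3.51 ± 0.12, adjusted p = 5.22e-07). Their targets did not all follow. *COR15B* fell to 1.90 and 2.57 CPM in HS, against 34.3 and 29.6 CPM in control, while *COR47*, a dehydrin gene, had 390.4 and 487 CPM in HS, against 98.0 and 109 CPM in control (log2 fold change 2.09 ± 0.14, adjusted p = 7.73e-06).

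**Figure D5:**
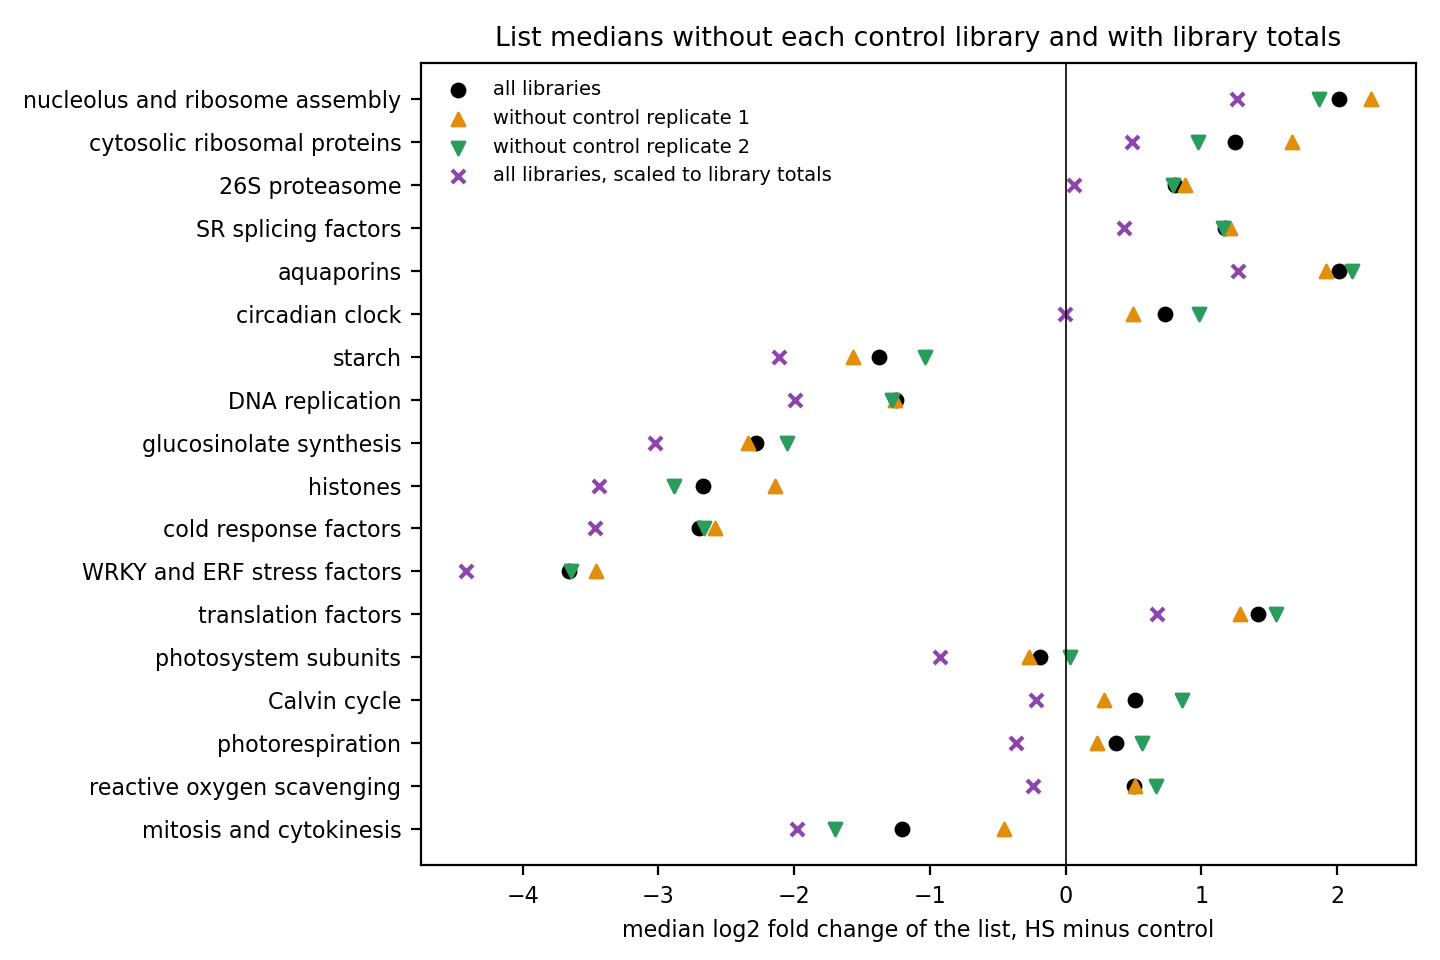
Median log2 fold change (HS minus control) of 18 gene lists with all libraries (black circles), without control replicate 1 or 2 (triangles) and with all libraries scaled to library totals (crosses). The black and triangular marks lay on the same side of 0 for every list shown but the photosystem subunits, and library totals moved the Calvin cycle, photorespiration and reactive oxygen lists below 0 and the clock list to about 0.

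Hormone genes were mixed. Abscisic acid closes stomata, and its whole list gave 13 higher and 10 lower of 32, close to the background (7 higher and 16 lower with library totals). Within it, the genes of synthesis and breakdown were lower in 6 of 9 cases and higher in 1, while its targets were higher in 5 of 8. The single increase among the synthesis and breakdown genes was *CYP707A4*, a hydroxylase that inactivates the hormone, with 49.1 and 45.4 CPM in HS, against 0.784 and 0.929 CPM in control (log2 fold change 5.74 ± 0.21, adjusted p = 6.06e-07). The other breakdown genes *CYP707A2* and *CYP707A3* had log2 fold changes of -2.82 and -2.08. *NCED3*, at the limiting step of synthesis, fell to 2.49 and 2.66 CPM in HS, against 5.55 and 6.57 CPM in control.

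Cytokinin genes were lower in 10 of 13 cases, with 1 higher. The type-A response regulators are induced by the hormone and dampen its signal. *ARR5* fell to 1.17 and 2.40 CPM in HS, against 36.4 and 17.1 CPM in control, a log2 fold change of -3.68 that was -2.99 without control replicate 1 and -4.49 without HS replicate 2. *IPT3*, an enzyme of cytokinin synthesis, fell to 1.61 and 2.14 CPM in HS, against 15 and 28.2 CPM in control, a log2 fold change of -3.45 that was -2.83 without control replicate 2. *AHK3*, a receptor, was higher by TMM alone, with 128 and 126 CPM in HS, against 44.8 and 72.4 CPM in control.

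Auxin genes gave 9 higher and 11 lower of 27. *GH3.3*, which conjugates auxin to amino acids, had 31.4 and 34.0 CPM in HS, against 1.87 and 0.993 CPM in control (log2 fold change 4.60 ± 0.25, adjusted p = 2.79e-06). The repressor *IAA4* fell to 6.58 and 6.35 CPM in HS, against 66.6 and 37.0 CPM in control. Gibberellin genes were lower in 9 of 14 cases. Whether gibberellin signalling rose or fell as a whole was not tested, and the genes named next do not decide it. The DELLA repressor *GAI* fell to 3.22 and 2.63 CPM in HS, against 31.4 and 29.7 CPM in control (log2 fold change -3.44 ± 0.15, adjusted p = 1.16e-06), and *GA3OX1*, which makes the active hormone, had 14 and 13.6 CPM in HS, against 2.83 and 2.66 CPM in control.

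Genes of starch metabolism were mostly lower on both the synthesis and the breakdown side. Of 27 genes 20 were lower and 3 higher, among them 12 of 15 breakdown genes lower. *SBE2.1*, a branching enzyme, fell to 14.9 and 15.8 CPM in HS, against 130 and 164 CPM in control (log2 fold change -3.25 ± 0.15, adjusted p = 1.33e-06). Its paralog *SBE2.2* was higher by TMM alone, with 190 and 202 CPM in HS, against 82.2 and 122 CPM in control (log2 fold change 0.93). *GWD1*, the dikinase that opens starch granules to attack, fell to 136 and 137 CPM in HS, against 425 and 790.5 CPM in control. *GBSS1*, which makes amylose, instead had 52.5 and 60.3 CPM in HS, against 11.2 and 12.4 CPM in control. The breakdown gene *BAM1* was also higher (log2 fold change 1.12). The count of higher genes was 6 without control replicate 1.

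Glucosinolates are sulphur-rich defence compounds of the Brassicaceae, and 23 of 25 genes of their synthesis were lower, with 1 higher and a median of -2.28. *FMOGS-OX3* (AT1G62560), which oxidises the side chain, fell to 1.61 and 1.71 CPM in HS, against 85.4 and 89.9 CPM in control (log2 fold change -5.70 ± 0.15, adjusted p = 3.52e-07). All 5 MYB regulators of the pathway were lower, *MYB28* with 15.6 and 15.2 CPM in HS, against 65.7 and 81.2 CPM in control. The increase, *CYP79B3*, was small and turned to -0.36 on the log2 scale with library totals.

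Phenylpropanoid and flavonoid genes changed in both directions, with 8 of 18 lower and 5 higher (11 lower with library totals). The entry enzymes *PAL1* and *PAL2* were lower: *PAL1* fell to 6.29 and 5.20 CPM in HS, against 44.4 and 50.9 CPM in control (log2 fold change -3.10 ± 0.15, adjusted p = 1.50e-06). Chalcone synthase (*CHS*), the first step of the flavonoid branch, had 368 and 425 CPM in HS, against 35.0 and 26.7 CPM in control (log2 fold change 3.69 ± 0.17, adjusted p = 1.33e-06). Its activator *MYB111* had 22.8 and 24.8 CPM in HS, against 1.57 and 1.35 CPM in control. Neither branch moved as one. *C4H*, the enzyme after PAL, had 257 and 267 CPM in HS, against 63.5 and 62.6 CPM in control, while chalcone isomerase (*CHI*), the step after CHS, fell to 2.92 and 2.27 CPM in HS, against 9.05 and 8.17 CPM in control. *TT19*, a late anthocyanin gene, had 1 and 2 reads in HS, against 77 and 28 reads in control.

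Genes of protective sugars and proline gave 4 higher and 7 lower of 13, with changes in both directions on either side. *GOLS1* (AT2G47180), which makes galactinol for raffinose sugars, had 1229 and 1299 CPM in HS, against 8.80 and 7.21 CPM in control, a log2 fold change of 7.31 ± 0.19 (adjusted p = 3.66e-07). *P5CS1*, the limiting enzyme of proline synthesis, fell to 9.36 and 7.67 CPM in HS, against 128 and 168 CPM in control (log2 fold change -4.16 ± 0.18, adjusted p = 1.19e-06), while *P5CR*, the next enzyme, had 320.2 and 361 CPM in HS, against 54.8 and 45.7 CPM in control. A heat shock element of 3 alternating units (GAANNTTCNNGAA or TTCNNGAANNTTC) was in 0.385% of all windows, 0.595% of those of higher genes and 2.35% of those at least 16-fold higher. All windows include those of genes not tested, and the last set includes small heat shock protein genes. The shares are a description with no test. The *GOLS1* window held one and is shown with the match in capitals.
GOLS1, chr2:19370526-19370618, minus strand: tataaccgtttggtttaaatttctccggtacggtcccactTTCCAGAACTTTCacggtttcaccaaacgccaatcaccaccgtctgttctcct

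Mitochondrial stress genes, which nuclear NAC factors switch on when respiration is disturbed, were higher in 8 of 11 cases and lower in 2. *ANAC013*, one of those factors, had 97.4 and 111 CPM in HS, against 5.31 and 4.48 CPM in control (log2 fold change 4.43 ± 0.14, adjusted p = 5.08e-07). *UPOX*, a target used as a marker of oxidative stress, had 116 and 134 CPM in HS, against 9.29 and 5.73 CPM in control. *AOX1A*, the alternative oxidase that is the usual reporter of this pathway, did not pass the test, with 28.5 and 32.6 CPM in HS, against 28.6 and 35.7 CPM in control, and *OM66* fell to 2.19 and 2.37 CPM in HS, against 16.8 and 16.3 CPM in control.

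Enzymes that remove reactive oxygen gave 15 higher and 6 lower of 24 by TMM, but 2 higher and 10 lower with library totals, and 3 lower without either HS library. Outside that list, *APX2* (AT3G09640), an ascorbate peroxidase, had 1451 and 1548 CPM in HS, against 2.35 and 0 CPM in control. Its control reads came from replicate 1 alone, and the log2 fold change without control replicate 2 was 9.36. Nitrogen assimilation gave 8 lower and 3 higher of 15 genes. *ASN2*, an asparagine synthetase, fell to 11.1 and 11.3 CPM in HS, against 104 and 121 CPM in control (log2 fold change -3.32 ± 0.13, adjusted p = 8.05e-07), and the nitrite reductase gene *NIR1* had 433 and 432 CPM in HS, against 180 and 229.6 CPM in control.

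Transcripts of the organelle genomes moved apart. Of 146 mitochondrial genome loci 69 were tested, and all 69 were higher, with a median log2 fold change of 5.34. A locus could pass the filter on low counts through its HS reads alone, so that count can follow in part from the filter. Mitochondrial loci took 0.107% and 0.238% of reads in HS, against 0.0120% and 0.0192% in control. Chloroplast genome loci gave 26 lower and 7 higher of 55, with 14 higher without control replicate 2, 3 higher without HS replicate 2 and 4 higher with library totals. They took 0.179% and 0.287% of reads in HS, against 0.588% and 0.797% in control. Plant organelle transcripts mostly carry no stable poly(A) tail, and the share that such libraries capture was not tested.

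The largest increases outside the small heat shock proteins included loci with little annotation. *AT5G07330*, annotated as an iron-sulphur cluster protein, had 387 and 1977 reads in HS and none in control (0 reads), which is at least 1012-fold higher against a floor of 3 reads over the control group. *AT1G72660*, a P-loop nucleotide hydrolase, had 242 and 252 CPM in HS, against 0.121 and 0.128 CPM in control (log2 fold change 10.87 ± 0.20, adjusted p = 3.33e-07). *AT1G21940* had 2932 reads over both HS libraries and 2 over both control libraries, a ratio of normalised reads of 1882 (95% exact counting interval 521 to 15548). It lies at 7715170 to 7716975 of chromosome 1 in the deposited coordinates, next to the *ONSEN* locus *AT1G21945* at 7717826 to 7722120. Whether its reads start in the element was not tested.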

How the data were processed

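RNA-seq libraries were made from *A. thaliana* rosette leaves with a TruSeq kit that does not record strand, so overlapping and antisense genes cannot be told apart. The submitters' processing notes name FastQC, TopHat and the genome TAIR10. The authors deposited a table of raw read counts per annotated locus, which was used here, beside columns headed RPKM, which were not. No row lacked a gene name. The number of reads per library sets the precision, from 9624503 to 45254555.

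Counts of 6 libraries (HS, control and recovery, 2 each) were fitted together in edgeR 4.0.16 (R 4.3.3, limma 3.58.1) with filterByExpr (minimum count 10, minimum total 15), TMM scaling and the quasi-likelihood test, Benjamini-Hochberg adjusted over 18536 genes. HS minus control was the contrast, with SE on the log2 scale. CPM values are counts per 1e6 TMM-scaled reads. With 2 libraries against 2, a two-sided exact permutation test of a single gene cannot go below p = 0.333, so none was run. The alternatives were RLE scaling, library totals, no filter, at least 10 reads in each library, omission of organelle loci, the HS and control libraries alone, a replicate block, omission of each library, and DESeq2 1.42.0.

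The 51 lists hold 1020 entries of the table, and members and lists were chosen with earlier results of these data known. Named genes were, per list, the 2 largest increases and 2 largest decreases with an adjusted p under 0.05 with all libraries and without each control, non-overlapping libraries, the same sign with library totals and a mean of at least 5 CPM (otherwise the 2 smallest p), plus the 10 largest increases and decreases overall from 10 CPM, 170 genes in all. Further genes were described after their values were seen where they completed a list. For genes with 3 reads or fewer in a group, ratios of normalised reads carry exact 95% intervals. The deposited coordinates of 99.8% of matched nuclear loci lay within 2000 bases of RefSeq TAIR10.1, which supplied the upstream sequences and symbols.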

Additional observations from a re-analysis of the deposited data

How the results depend on the processing

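The numbers of genes called higher and lower after HS stayed within 1.5 times of 6471 and 7319 under every alternative but library totals, which gave 3411 higher and 11101 lower. Leaving out 1 library at a time gave 5113 to 7493 higher and 5843 to 8001 lower genes, lowest without HS replicate 2. DESeq2 gave 6363 higher and 6349 lower, RLE scaling 6836 and 6995, and no filter 6931 and 7909. The 170 named genes were mostly chosen for a call without each control library and the same sign with library totals, so their stability in those respects restates the choice. Their adjusted p went above 0.05 for 12 genes with library totals, 3 with DESeq2, 4 without HS replicate 1 and 5 without HS replicate 2. Replicate numbers did not pair the libraries: the correlations of replicate differences between groups were -0.04, -0.08 and 0.12 over 10339 genes, and the fit with a replicate block called 6453 higher and 7184 lower. Depth limits the genes with a few reads in a group, whose folds span wide counting intervals.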

Other observations

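Classes of transcript outside the protein-coding genes were uneven. Of 53 long non-coding RNAs tested 31 were lower after HS and 6 higher, and of 89 other non-coding RNAs 49 were lower and 10 higher. Pseudogenes gave 69 higher and 61 lower of 159. Of 71 small nucleolar RNAs listed 4 were tested, and all 4 were higher, with a median log2 fold change of 5.31. TruSeq libraries capture few such short RNAs. A locus could pass the filter on low counts through its HS reads alone, so that count can follow from the filter. Of 138 tested loci that were not matched to RefSeq 83 were higher and 30 lower. Only nuclear loci were matched, so the 138 include the organelle genome loci already described. Of these, 55 chloroplast and 69 mitochondrial loci were tested.

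Marker lists of cell types and tissues held calls in both directions. Leaf mesophyll markers were higher in 4 of 6 cases (1 with library totals, 2 without either HS library). Guard cell markers were lower in 2 of 6 cases (4 with library totals, 1 without HS replicate 2). Phloem and xylem markers were higher in 3 and lower in 1 of 6, with 3 lower without control replicate 1, 5 higher without control replicate 2 and 2 lower with library totals. Epidermis and trichome markers were higher in 2 and lower in 1 of 6, with 4 higher without control replicate 1 and 1 higher with library totals or without HS replicate 2. The 1 root marker tested was lower. All 4 flower markers tested were higher, with a summed level of 19.0 and 17.8 CPM in HS, against 5.13 and 2.75 CPM in control (2 higher without HS replicate 2). A flower marker could pass the filter on low counts through its HS reads alone, so that count can follow in part from the filter. *AP1*, for example, had 8 and 73 reads in HS, against 3 and 0 reads in control. No seed marker was tested (0 genes), and their summed level was 1.17 and 1.32 CPM in HS, against 0.302 and 0.0961 CPM in control. The epidermal marker *PDF1* had 133 and 142 CPM in HS, against 52.5 and 9.32 CPM in control, a log2 fold change of 3.89 without control replicate 1 and 1.44 without control replicate 2.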
